A study of Mus musculus with 12 samples.

Results

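Voltage-gated sodium and calcium channel genes were described across the libraries of mouse hypothalamus. They were chosen by symbol: every row of the normalized expression table named as a sodium channel pore subunit (the Scn genes ending in a), a sodium channel beta subunit (those ending in b), a calcium channel pore subunit (the Cacna1 genes), or an alpha2delta (Cacna2d), beta (Cacnb) or gamma (Cacng) subunit. This gave 40 genes of the 32494 listed, 26 of calcium channels and 14 of sodium channels.

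The study asked what the loss of Smc3, which encodes a subunit of the cohesin ring, does in neurons of the adult brain. All 12 mice were male, carried floxed Smc3 and received tamoxifen, and hypothalamus was taken 5 weeks after it. The 7 mice labelled WT lacked the Camk2a-cre/ERT2 transgene (Cre-), and the 5 labelled cKO carried it (Cre+). The mice are given as 8 weeks old, with the step this refers to unstated, every title holds the word control, and no batch is named. The Camk2a promoter is active mainly in excitatory neurons of the forebrain, so that glia, vessels and many neurons of a hypothalamic sample should keep Smc3. The titles give each mouse its own number, and each library is taken as 1 mouse. In such bulk tissue, fewer cells of a type and less RNA per cell cannot be told apart.

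Voltage-gated channels open when the membrane depolarizes. A sodium channel has a single large pore subunit, which carries the upstroke of the action potential, and small beta subunits that set its gating and its place in the membrane. Calcium channel pores fall into high-voltage types (L, P/Q, N and R), which couple spikes to transmitter and hormone release and to gene expression, and low-voltage T types, which open near rest and drive rebound bursts. The alpha2delta and beta subunits bring the high-voltage pores to the membrane, while most brain gamma subunits (the TARPs) accompany AMPA-type glutamate receptors. In the hypothalamus these channels pace neurosecretory and metabolic neurons.

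The libraries held between 17126005 and 24010001 reads, except WT mouse 1 with 68744112. Levels are given in CPM, reads scaled to a common library size, and 3 reads correspond to 0.0436 to 0.178 CPM, a limit that covers counting error only. Smc3 itself stood at 76.8 to 85.7 CPM in the WT libraries and at 116 to 144 CPM in those labelled cKO, so the targeted gene's total goes against the label, and groups are given below as labelled. In 4 libraries (WT 4, WT 5, cKO 12 and cKO 13) the hypothalamic peptide gene Oxt lay at 0.28 to 2.33 CPM, against 69.5 to 348 CPM in the other 8. Avp was also lowest in those 4. WT 11 had 0.37 CPM of Hcrt and 1.03 CPM of Pmch, the peptides of the lateral hypothalamus. Thalamic marker genes were lower in the libraries labelled cKO: 8 of 20 passed the test, all downward, with a summed level of 2383 to 3880 CPM in WT and 1942 to 2616 CPM in cKO. Of 10 genes of all neurons, 3 passed, all upward, with summed levels of 6166 to 6868 and 6948 to 7605 CPM. No gene of either list was at 0 in every library.

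The promoters of Cacna1d and Scn2a are shown because the results below turn on Cacna1d, a calcium pore that fell, and on Scn2a, the sodium pore with the highest level, and because each has 2 annotated starts of unlike base composition. They are the 250 bases before each start, 5′ to 3′ on the gene's strand, from RefSeq on GRCm38.p6. Capitals mark the GC box GGGCGG and the TATA box TATAAA, searched on both strands with overlapping matches counted, so that a run of both TATAAA and its reverse complement counts as 2.
Cacna1d, chr14:30353487-30353736, minus strand: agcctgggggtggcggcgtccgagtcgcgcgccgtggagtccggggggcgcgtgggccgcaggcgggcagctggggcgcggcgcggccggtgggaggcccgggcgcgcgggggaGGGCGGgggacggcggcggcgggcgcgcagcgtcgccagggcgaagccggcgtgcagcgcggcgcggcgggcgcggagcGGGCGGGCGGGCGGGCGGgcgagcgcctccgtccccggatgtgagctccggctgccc
Cacna1d, chr14:30491157-30491406, minus strand: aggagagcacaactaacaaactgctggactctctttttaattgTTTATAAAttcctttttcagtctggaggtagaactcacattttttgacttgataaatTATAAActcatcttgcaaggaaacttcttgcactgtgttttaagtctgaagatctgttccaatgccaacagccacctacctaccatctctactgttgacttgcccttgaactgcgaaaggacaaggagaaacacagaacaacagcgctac
Scn2a, chr2:65620519-65620768, plus strand: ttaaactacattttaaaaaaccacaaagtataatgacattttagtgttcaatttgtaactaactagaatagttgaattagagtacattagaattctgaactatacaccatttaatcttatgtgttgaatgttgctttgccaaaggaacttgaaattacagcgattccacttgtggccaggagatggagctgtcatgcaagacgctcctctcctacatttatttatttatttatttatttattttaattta
Scn2a, chr2:65668436-65668685, plus strand: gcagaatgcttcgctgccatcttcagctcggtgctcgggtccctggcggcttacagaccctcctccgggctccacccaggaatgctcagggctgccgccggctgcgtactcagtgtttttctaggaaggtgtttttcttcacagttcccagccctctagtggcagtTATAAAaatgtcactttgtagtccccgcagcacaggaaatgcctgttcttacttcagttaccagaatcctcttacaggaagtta
The first Cacna1d window is 86.4% G and C with 5 GC boxes and no TATA box, and the other is 39.6% with 3 TATA box matches. The Scn2a windows are 29.6% and 53.2% G and C, hold no GC box, and have 1 TATA box match, in the second. The table held 41 such windows for 30 of the 40 genes. A GC box was in 36.6% of them and in 32.7% of all 32851 windows; a TATA box was in 4.88% and in 12.4%. Among pore genes, 5 of 10 calcium windows (7 genes) and 1 of 10 sodium windows (8 genes) held a GC box. Cacna1a, Cacna1g and Cacna1h, the other calcium pores called below, had no window and are not in this count. These matches describe letters only, and reads counted per gene do not separate the starts.

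In the comparison of cKO with WT, 4 calcium channel pore genes fell and no sodium channel gene passed the test. The 4 were Cacna1g, Cacna1d, Cacna1h and Cacna1a, with levels 15.8% to 31.6% lower in the libraries labelled cKO. The test was limma on log2(CPM + 1) over the 15359 genes that averaged 1 CPM or more, with Benjamini-Hochberg adjustment over all of them and a threshold of 0.05. Of the 40 channel genes, 34 were tested and 4 called (11.8%), while 14.1% of all tested genes were called in either direction; 7.6% of all genes were called lower. The number of channel genes called was thus close to the share among all genes. Fitted log2 fold changes were below 0 for 23 of the 34 channel genes, with a median of -0.08, against 47.5% of all tested genes, with a median of 0.01.

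**Figure D1:**
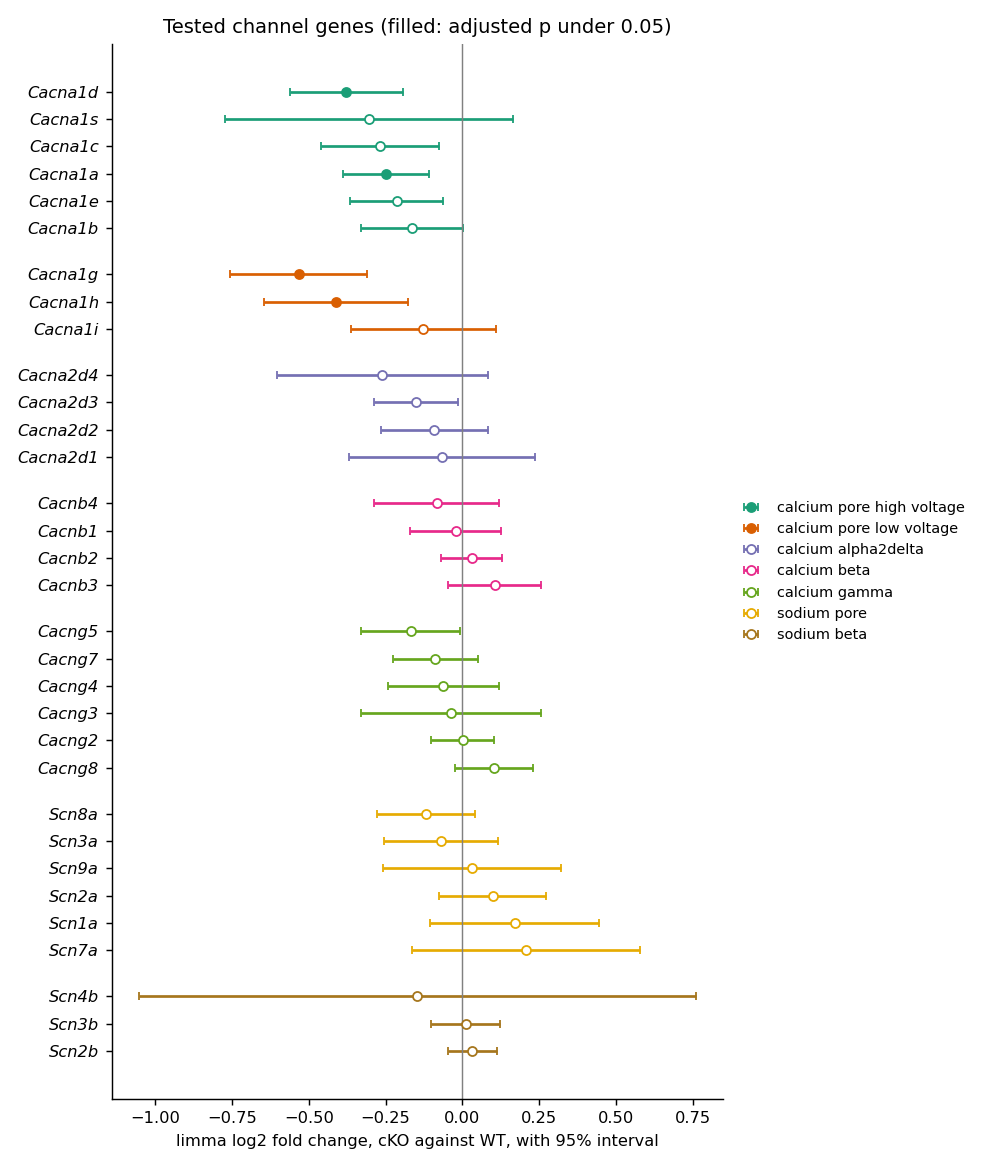
Fitted log2 fold change (limma, log2(CPM + 1) scale, 5 libraries labelled cKO against 7 WT) of 32 of the tested channel genes with 95% confidence intervals, grouped by family and coloured as in the key; filled points have an adjusted p under 0.05. All 9 calcium pore genes lie left of 0, with 4 filled, while the sodium pore genes lie on both sides of it and none is filled.

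The high-voltage calcium pores were 7 genes, of which 6 were tested and 2 fell. Cacna1d encodes an L-type pore that opens at fairly negative potentials and supports pacemaking. Its level was 53.9 to 75.0 CPM in WT (median 69.7) and 56.2, 53.1, 53.8, 42.2 and 50.7 CPM in cKO mice 8, 9, 12, 13 and 14. All 5 cKO values lay below the WT median and 4 below every WT value, the overlap coming from the lowest WT library, WT 5. The log2 fold change was -0.38 ± 0.09 (SE; 23.5% lower; adjusted p = 0.0139 by limma), and the exact two-sided permutation test over all splits into 7 and 5 gave p = 0.00379, where the smallest it can give is 0.00126.

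Cacna1a encodes the P/Q-type pore, the main trigger of transmitter release at many central synapses. It was at 119 to 148 CPM in WT (median 143) and at 122, 118, 129, 99.4 and 115 CPM in cKO mice 8, 9, 12, 13 and 14. Of the 7 WT libraries, 6 lay above every cKO library, and WT 5 lay among them. The change was -0.25 ± 0.07 (SE; 15.8% lower; adjusted p = 0.0256 by limma; exact permutation p = 0.00631). The call was lost without WT 1, without cKO 13 or without cKO 14, where the adjusted p was at most 0.0536.

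Cacna1e, the R-type pore, and Cacna1c, the main L-type pore of brain, came closest to the threshold without passing it. Cacna1e stood at 188 to 234 CPM in WT (median 221) and 158 to 197 CPM in cKO (median 190), with a log2 fold change of -0.21 (adjusted p = 0.0583 by limma). Cacna1c stood at 84.3 to 128 CPM in WT (median 98.5) and 73.1 to 91.6 CPM in cKO (median 82.1), with -0.27 (adjusted p = 0.0599 by limma). The groups overlapped for both genes. Both passed when WT 5 was left out (adjusted p = 0.0306 and 0.0317), and Cacna1e also without WT 7.

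Cacna1b, the N-type pore of presynaptic terminals, had the highest high-voltage level per kilobase of exon, 19.0 CPM per kb in WT and 17.0 in cKO. Its values were 163 to 206 CPM in WT (median 193) and 175, 180, 177, 133 and 181 CPM in cKO mice 8, 9, 12, 13 and 14. The groups overlapped, with cKO 13 well below the other cKO libraries, and the log2 fold change of -0.16 did not pass (adjusted p = 0.163 by limma). Cacna1s, the L-type pore of skeletal muscle, was scarce, at 1.35 to 5.87 CPM in WT and 1.40 to 3.11 CPM in cKO. Its fold change of -0.30 had a 95% interval from -0.77 to 0.16. Cacna1f, the L-type pore of photoreceptors, was below the minimum and untested, at 0.394 to 0.979 CPM in WT and 0.294 to 0.797 CPM in cKO.

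**Figure D2:**
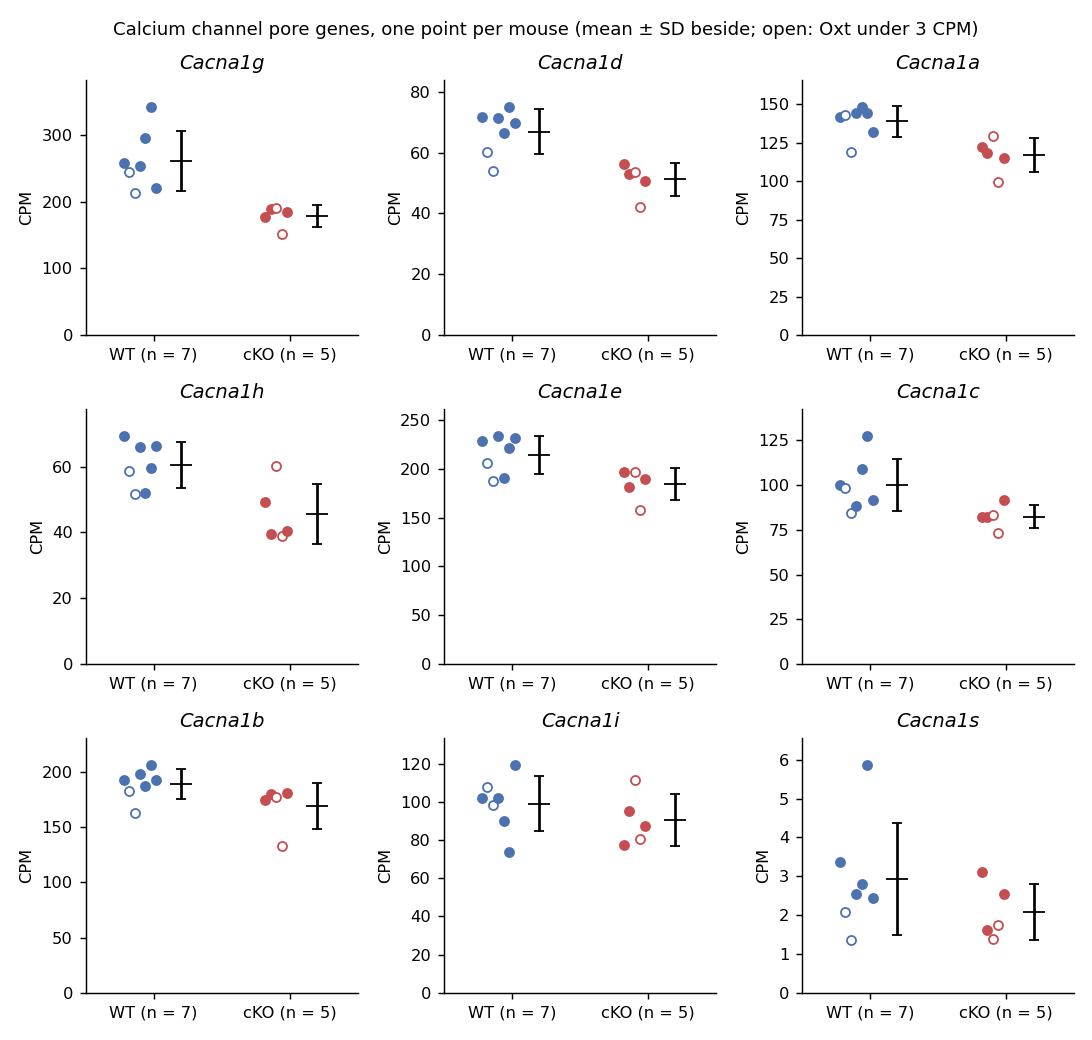
CPM of the 9 tested calcium pore genes in each mouse (linear axes from 0; blue WT, n = 7; red labelled cKO, n = 5), with the mean ± SD of each group at the side and open symbols for the 4 libraries under 3 CPM of Oxt. Cacna1g is the gene whose groups do not overlap, and in the other panels at least 1 cKO point reaches the WT range.

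Among the 3 low-voltage pores, Cacna1g and Cacna1h fell and Cacna1i did not pass. Cacna1g encodes a T-type pore known for the burst firing of thalamic relay neurons, and it had the highest level per kilobase of all calcium pores, 25.7 CPM per kb in WT and 17.6 in cKO. It was at 213 to 342 CPM in WT (median 253) and at 178, 189, 190, 151 and 185 CPM in cKO mice 8, 9, 12, 13 and 14. Every cKO library lay below every WT library, which held for 3.2% of all tested genes. Of the 34 tested channel genes, 1 had groups that did not overlap in either direction, against 6.73% of all tested genes. The change was -0.53 ± 0.10 (SE; 31.6% lower; adjusted p = 0.00798 by limma; exact permutation p = 0.00253).

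Cacna1h encodes a T-type pore that supports rebound firing. It was at 51.8 to 69.3 CPM in WT (median 59.6) and at 49.2, 39.7, 60.3, 39.0 and 40.3 CPM in cKO mice 8, 9, 12, 13 and 14. Of the cKO libraries 4 lay below every WT library, and cKO 12 lay above the WT median. The change was -0.41 ± 0.11 (SE; 24.5% lower; adjusted p = 0.0259 by limma; exact permutation p = 0.0114), and the call was lost without WT 1, cKO 9, cKO 13 or cKO 14 (highest adjusted p = 0.0647). Cacna1i, the T-type pore with the slowest gating, stood at 73.5 to 119 CPM in WT and 77.6 to 111 CPM in cKO, with a log2 fold change of -0.13 (95% interval -0.36 to 0.11).

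**Figure D3:**
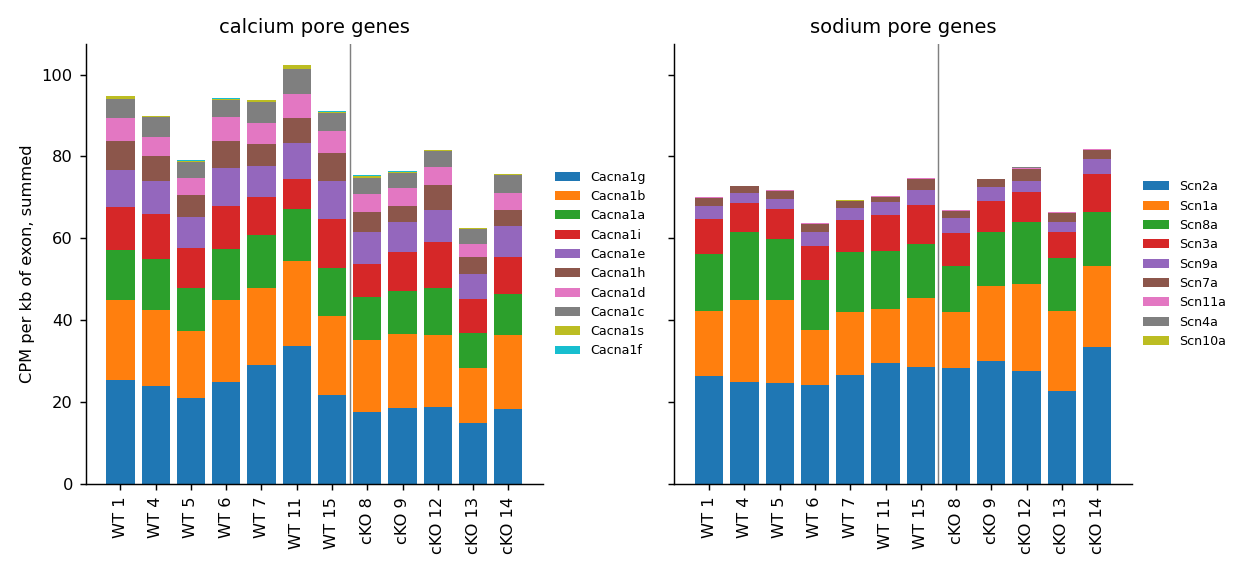
Stacked CPM per kilobase of exon of the 10 calcium pore genes and 9 sodium pore genes in each library, WT to the left of the grey line and labelled cKO to the right. The calcium stacks reach 79.0 to 102 in WT and 62.5 to 81.6 in cKO, and the sodium stacks 63.7 to 74.7 and 66.4 to 81.8.

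Summed over the 10 calcium pores, the level was 79.0 to 102 CPM per kb in WT and 62.5 to 81.6 in cKO; WT 5 and cKO 12 were the libraries that overlapped. Cacna1g made up 23.8% to 32.9% of that sum in WT and 23.0% to 24.4% in cKO. Cacna1b made up 20.1% to 21.3% in WT and 21.4% to 24.0% in cKO, so its share was higher in every cKO than in every WT library, while its level in CPM was not. The sum over 9 sodium pores was 63.7 to 74.7 CPM per kb in WT and 66.4 to 81.8 in cKO, with Scn2a giving 34.2% to 42.1% in WT and 34.4% to 42.5% in cKO. Lengths are the exon union of each gene in GENCODE M21, used as a scale only.

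Markers of thalamic neurons were lower in the cKO libraries along with these pores, and markers of all neurons were higher. Cacna1g was highest in WT 11 and WT 7, the libraries with the most Tcf7l2, a transcription factor of thalamic neurons (307 and 278 CPM). Tcf7l2 itself did not pass (log2 fold change -0.25, adjusted p = 0.376 by limma). Among the cKO libraries Tcf7l2 was lowest in cKO 12 (114 CPM) and highest in cKO 9 (221 CPM). Cacna1g was nearly the same in these libraries, at 190 and 189 CPM. The protein kinase gene Prkcd, a marker of thalamic relay neurons, stood at 79.1 to 266 CPM in WT and 35.2 to 124 CPM in cKO. It passed (log2 fold change -1.44, adjusted p = 0.0177 by limma). Prkcd was highest in WT 4, where Cacna1g was at 244 CPM, below its WT median. With the mean level of the 20 thalamic markers as a covariate, 2 of the 34 channel genes passed, beside 4.94% of all genes: Cacna1h at -0.62 (adjusted p = 0.0138 by limma) and Cacna1i at -0.39 (0.0299). In that fit Cacna1g was at -0.35 (adjusted p = 0.0868), Cacna1d at -0.36 (0.0798) and Cacna1a at -0.24 (0.115). With thalamic and hypothalamic markers together, Cacna1d, Cacna1e, Cacna1h and Cacna1i passed, beside 7.8% of all genes. With the markers of all neurons as the covariate, 7 channel genes passed, beside 8.65% of all genes, and none of the original 4 was among them: 1 of them, Scn9a, rose, and those that fell included Cacna2d4, Cacnb4, Cacng7, Scn4b and Scn8a. In that fit Cacna1g was at -0.46 (adjusted p = 0.0685), near its value without the covariate and with an SE of 0.15 in place of 0.10. Cacna1d was at -0.14 (0.282), Cacna1h at -0.22 (0.339) and Cacna1a at -0.17 (0.25), each nearer to 0 than without it. These scores differ between the groups (exact permutation p = 0.0164 for the thalamic and 0.0114 for the all-neuron markers), so genotype and composition cannot be told apart here.

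**Figure D4:**
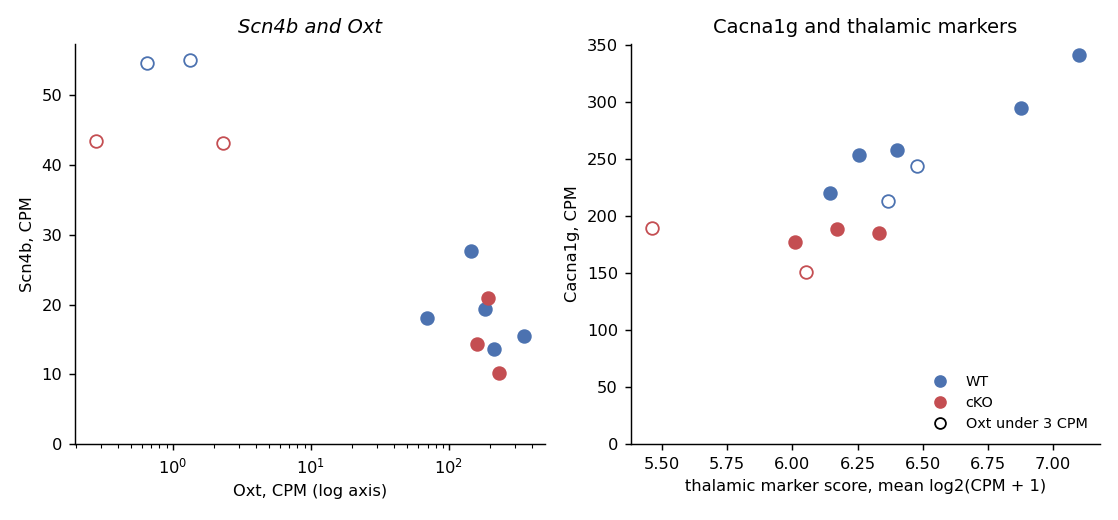
Left, Scn4b against Oxt, both in CPM with Oxt on a log axis; right, Cacna1g in CPM against the mean log2(CPM + 1) of the 20 thalamic markers; blue WT, red labelled cKO, 1 point per mouse, open where Oxt is under 3 CPM. Scn4b is at 43.2 to 55.1 CPM in the 4 open points and at 10.2 to 27.8 in the other 8, and every red Cacna1g point lies below every blue one.

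The alpha2delta subunits were 4 genes, all tested with fold changes below 0, and none passed. Cacna2d2, known to accompany P/Q-type pores, had the highest level per kilobase, 19.4 CPM per kb in WT and 18.2 in cKO. It was at 126 to 168 CPM in WT (median 161) and at 157, 149, 150, 119 and 147 CPM in cKO mice 8, 9, 12, 13 and 14, with groups that overlapped (log2 fold change -0.09, 95% interval -0.27 to 0.08). Cacna2d3 was at 76.3 to 86.7 CPM in WT and 63.8 to 86.3 CPM in cKO, with -0.15 (adjusted p = 0.128 by limma), and passed only when cKO 14 was left out (0.0453). Cacna2d1, a target of gabapentin drugs, ranged from 159 to 244 CPM in WT and 150 to 272 CPM in cKO. The scarce Cacna2d4 ranged from 4.70 to 9.50 and from 4.52 to 7.41 CPM.

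The calcium channel beta subunits, which bind the pores inside the cell and are needed for their surface level, were 4 tested genes with none called, 2 below 0 and 2 above. Cacnb3 had the highest level per kilobase, 28.1 CPM per kb in WT and 30.1 in cKO. It was at 94.4 to 133 CPM in WT (median 112) and at 131, 123, 119, 117 and 114 CPM in cKO mice 8, 9, 12, 13 and 14. These cKO values lay inside the WT range, and the log2 fold change was 0.11 (95% interval -0.05 to 0.26). Cacnb1, Cacnb2 and Cacnb4 had fold changes of -0.02, 0.03 and -0.08, with intervals that together ran from -0.29 to 0.13.

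Of the 8 gamma subunits, 6 were tested and none passed. Cacng7, a TARP, had the highest level per kilobase, 70.3 CPM per kb in WT and 66.1 in cKO. It was at 156 to 190 CPM in WT (median 170) and at 143, 163, 182, 165 and 155 CPM in cKO mice 8, 9, 12, 13 and 14, again overlapping (log2 fold change -0.09, 95% interval -0.23 to 0.05). Cacng2, which encodes stargazin, the TARP named for the stargazer mouse, had means of 123 CPM in both groups and a fold change of 0.00 (95% interval -0.10 to 0.10). Cacng3, Cacng4, Cacng5 and Cacng8 lay between -0.17 and 0.10. Cacng1, a subunit of the skeletal muscle channel, and Cacng6 were untested. Cacng1 stood at 0.133 to 0.744 CPM in WT (67 reads in all) and at 0.0420, 0.245, 0, 0.0475 and 0.0592 CPM in cKO mice 8, 9, 12, 13 and 14 (8 reads in all), where 0 reads in cKO 12 allow up to 0.140 CPM. Cacng6 was at 0.0493 to 0.279 CPM in WT and 0 to 0.355 CPM in cKO.

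None of the 7 tested sodium pore genes passed: 2 had fold changes below 0 and 5 above, with a median of 0.03 and a smallest adjusted p of 0.296 by limma. Scn2a, the pore of axons of excitatory neurons, had the highest level per kilobase, 26.4 CPM per kb in WT and 28.5 in cKO. It was at 308 to 378 CPM in WT (median 335) and at 362, 381, 351, 291 and 427 CPM in cKO mice 8, 9, 12, 13 and 14. The highest and the lowest of the 12 values were both in cKO libraries, and the log2 fold change was 0.10 (95% interval -0.08 to 0.27).

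Scn1a, the pore on which fast-spiking inhibitory neurons depend, ranged from 145 to 226 CPM in WT and 151 to 237 CPM in cKO, with 0.17 (95% interval -0.10 to 0.45). Scn8a, the pore of mature axon initial segments and nodes, ranged from 194 to 261 CPM in WT and 178 to 238 CPM in cKO, with -0.12 (95% interval -0.28 to 0.04). These intervals do not reach the change measured for Cacna1g. The Scn8a interval does include the change of -0.25 measured for Cacna1a, which was called. Scn3a, a pore most abundant in the embryonic brain, Scn9a, and Scn7a, a sodium-sensing relative, had fold changes of -0.07, 0.03 and 0.21; the Scn7a interval reached 0.58. Scn4a, Scn10a and Scn11a, known from muscle and sensory neurons, were untested, at most at 0.237, 0.462 and 1.69 CPM in any library.

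All 4 sodium channel beta genes were tested and none passed. Scn2b, whose protein links covalently to the pore, was at 325 to 353 CPM in WT (median 342) and at 340, 371, 340, 331 and 360 CPM in cKO mice 8, 9, 12, 13 and 14, so the groups overlapped. Scn2b and Scn3b had narrow intervals, from -0.05 to 0.11 and from -0.10 to 0.12. In the alternative fit with array weights, which called 5126 of all genes, Scn2b passed upward (0.09, adjusted p = 0.0397 by limma).

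Scn4b, the beta subunit that supports resurgent sodium current, had the widest interval of all tested channel genes, from -1.05 to 0.76 around a fold change of -0.15. It was at 55.1 and 54.6 CPM in WT 4 and WT 5 and at 43.4 and 43.2 CPM in cKO 12 and cKO 13, the 4 libraries low in Oxt. In the other 8 libraries it lay between 10.2 and 27.8 CPM, and neither set overlapped the other. Cacng3, Cacng4, Scn3a, Scn3b and Scn9a were also apart between these libraries, each of them lower in the 4. That is 6 of 34 channel genes (17.6%), against 6.54% of all genes tested that were likewise apart in this split, which was chosen after the values were seen and not tested. With the 4 libraries left out, Cacna1a, Cacna1d, Cacna1g and Cacna1h again passed, at -0.26, -0.40, -0.56 and -0.53 (adjusted p from 0.00577 to 0.0204 by limma), beside 10.3% of all genes.

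A list of 55 symbols covered genes whose proteins bind, anchor or work beside the channels, with some genes under old and new names. Of these symbols 46 were tested, and 6 passed, beside the 14.1% of all genes, 3 in each direction. Tspoap1, a RIM-binding protein that links calcium channels to the release site, fell, with 247 to 366 CPM in WT, 183 to 223 CPM in cKO and no overlap (log2 fold change -0.60 ± 0.09 SE; adjusted p = 0.00277 by limma; exact permutation p = 0.00126, the smallest possible). Grm7, a presynaptic glutamate receptor that inhibits release, fell, with 80.9 to 98.9 CPM in WT, 67.9 to 77.5 CPM in cKO and again no overlap (-0.25; adjusted p = 0.00936). Shisa7, a receptor auxiliary protein, fell with overlap (-0.35, adjusted p = 0.0331 by limma). Among the fits that left out 1 mouse, Shisa7 passed only without WT 4, without WT 5 or without cKO 8. Among those that rose, Lgi1, a secreted synaptic protein, and Akap6, an anchor of protein kinase A, did so by 0.20 and 0.22 on the log2 scale (adjusted p = 0.0149 and 0.0242). Their groups overlapped.

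In the authors' deposited table of the same comparison, 5 of the 40 channel genes (12.5%) had a false discovery rate under 0.05, against 4.94% of all 32494 genes. That base holds the many scarce genes: among the 15359 genes averaging 1 CPM or more, the authors' deposited table had 4 of 34 channel genes (11.8%) and 9.09% of all genes under it. The authors' deposited table gave Cacna1g -0.55, Cacna1d -0.39, Cacna1h -0.41 and Cacna1a -0.25 (log2), and also Cacng1 at -1.99 (false discovery rate 0.0392), the gene with 8 reads in all in the cKO libraries.

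Base composition was read beside the fold changes. The median G and C content of transcripts was 53.8% for the calcium pores, 45.7% for the sodium pores and 49.8% for all tested genes. Over 14515 genes the fold changes had a rank correlation of -0.22 with G and C content, a description across genes, which are not independent. After each library was corrected for G and C content and length, Cacna1g (-0.40; adjusted p = 0.0123 by limma) and Cacna1d (-0.30; 0.0196) passed, and Cacna1a (-0.12; 0.0648) and Cacna1h (-0.27; 0.0713) did not, beside 13.4% of all genes that passed.

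The library kit named in the labels does not record strand, so reads of overlapping genes on opposite strands cannot be told apart. In GENCODE M21, exons of the antisense gene Gm16183 cover 3.81% of the exons of Cacna1a, Chdh covers 4.67% of Cacna1d, and Tpsg1 covers 1.62% of Cacna1h. Gm16183 itself fell, from a mean of 3.40 CPM in WT to 1.70 CPM in cKO (log2 fold change -0.72; adjusted p = 0.00191 by limma). Chdh had a fold change of -0.10 (0.766), and Tpsg1 was under the minimum. The part of such reads in the Cacna1a value was not tested. Cacna1g had no such overlap. The largest overlaps were in Cacna1s and Cacnb4, which did not pass.

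**Figure D5:**
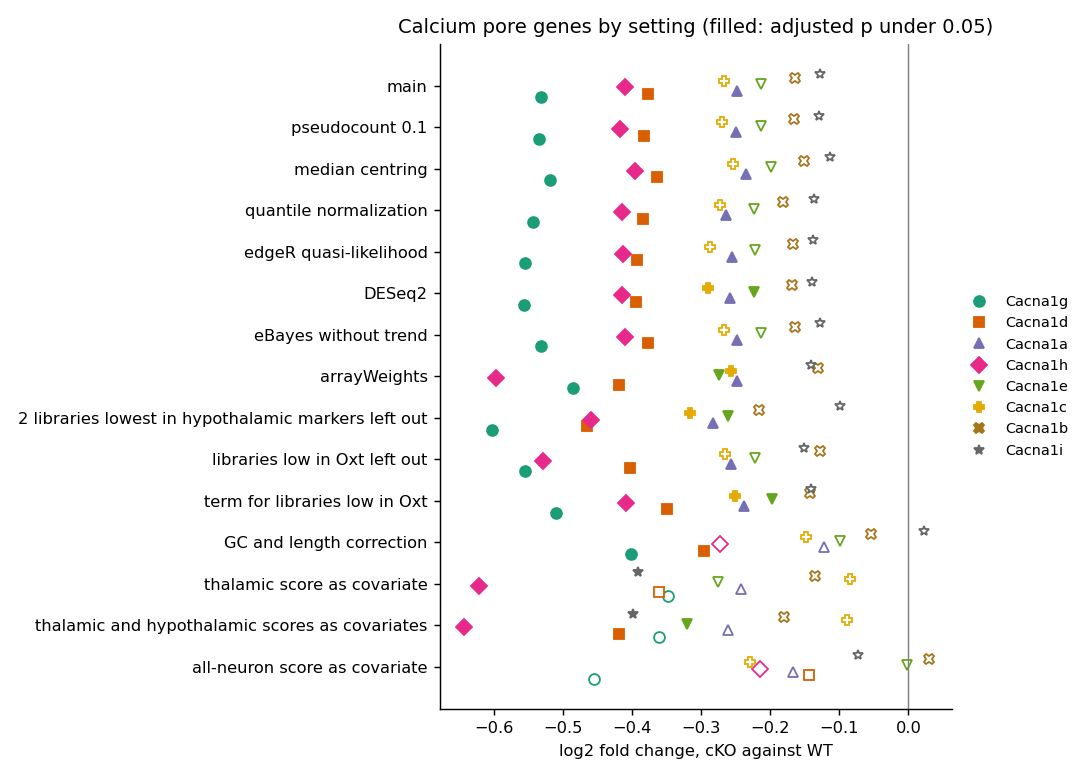
Log2 fold change of 8 calcium pore genes, the scarce Cacna1s left out, under the main analysis and 14 alternatives (rows), with filled symbols where the adjusted p is under 0.05. Cacna1g, Cacna1d, Cacna1h and Cacna1a keep values below 0 in every row, while some lose the threshold in the lower 4. The test of all genes above 0, in which Cacna1h had an adjusted p of 0.0510, is not drawn.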

How the data were processed

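mRNA isolated from the hypothalamus of 12 mice was sequenced, per the labels' protocols. The submitters' processing notes name bcl2fastq, FastQC 0.11.9, STAR 2.7.9a, SAMtools, Subread and featureCounts, with no role or order; genome build, annotation and strand setting are not given in the sources used here. The authors deposited normalized CPM, and a table of their comparison with log2 fold changes, log2 CPM, p-values and false discovery rates, per the file headers. All 12 value columns of the CPM table were used, with 0 left over. Low CPM values were whole multiples of 1 read in 100% of values (tolerance 0.01 reads), which gave the reads per library.

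From the deposited CPM, log2(CPM + 1) was fitted with limma 3.58.1 (R 4.3.3; eBayes with trend) over the 15359 genes averaging 1 CPM or more, and p-values were adjusted by Benjamini-Hochberg over all of them. Exact two-sided permutation tests used every split into 7 and 5. Tested on simulated data (15373 genes, log2 change of 1), this fit recovered 191 of 198 changed genes, with 10 false calls. That change is larger than those of the called channel genes, and no difference in cell composition was simulated. Recovery and false calls under those conditions were not measured. The count tests edgeR 4.0.16 (quasi-likelihood) and DESeq2 1.42.0 on recovered reads, other scalings, minimums and pseudocounts, marker covariates and leaving out each mouse were alternatives. Replicate libraries differed beyond sampling noise in all 31 pairs within groups (chi-square per degree of freedom 3.04 to 26.3, genes with at least 20 reads), so none was counted as a duplicate.

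The channel genes, partner genes and marker lists were chosen with earlier results of these data known. Values are given for channel genes past the threshold, the highest per kilobase in a family, those untested and those whose call changes when a mouse is left out, the others by range or fold change, and for partner genes past the threshold. Score differences of the other marker lists gave exact permutation p = 0.46 for hypothalamic neurons, 0.26 for cortex and striatum, 0.249 for excitatory neurons, 0.116 for inhibitory neurons, 0.232 for astrocytes, 0.783 for oligodendrocytes, 0.543 for oligodendrocyte precursors, 0.0316 for microglia (higher in cKO), 0.447 for endothelial and mural cells, 0.641 for skeletal muscle, 0.72 for ependyma and 0.053 for pituitary. Some genes are not reported here, and figures and summed levels leave them out. Sequences come from RefSeq tables on GRCm38.p6.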

Additional observations from a re-analysis of the deposited data

Results flagged for a closer look

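The values that stood apart within a group both came from cKO 13. Cacna1b stood at 133 CPM there, the lowest of the 5 cKO libraries, with the next at 175 CPM. Cacna2d2 stood at 119 CPM, also the lowest, with the next at 147 CPM. Each gap was larger, as a share of the group's range, than Dixon's 95% critical value for 5 samples. Chance flags about 1 in 20 groups, which for the 68 groups examined (34 genes in WT and in cKO) comes to 3.4, above the 2 seen. cKO 13 also had the lowest Cacna1a, Cacna1c, Cacna1d, Cacna1e, Cacna1g and Cacna1h levels of the cKO libraries, and it was 1 of the 4 libraries low in Oxt; the part of this in its low values was not tested. Without cKO 13, the log2 fold change of Cacna1b was -0.08 and that of Cacna2d2 -0.02, and neither passed with or without it.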

How the results depend on the processing

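Of 4 channel genes called, Cacna1g and Cacna1d passed in each of the 12 fits that left out 1 mouse, Cacna1a in 9 and Cacna1h in 8; the count ran from 2 (without WT 1 or cKO 13) to 6 (without WT 5). Another pseudocount, a minimum of 5 CPM, median centring, quantile normalization, edgeR and eBayes without trend also gave 4; DESeq2 gave 6, and testing all genes above 0 gave 3, without Cacna1h; leaving out WT 4 and WT 5, or a term for the libraries low in Oxt, gave 6. Each of these counts of 6 added Cacna1c and Cacna1e to the original 4. Array weights gave 9 channel genes, among them Cacna1c and Cacna1e, with 2 higher (Cacng8 and Scn2b). The thalamic covariate gave 2, the all-neuron covariate 7, and the correction for G and C content and length 2. For the 6 partner genes, array weights gave 17 and the thalamic covariate 2 (Cnih2 and Tspoap1). The all-neuron covariate gave 6, of which Tspoap1 alone was among the original 6. A term for the libraries low in Oxt gave 10, and the correction for G and C content and length gave 8, without Shisa7. Leaving out 1 mouse gave 3 (without cKO 12) to 6. Of all genes 2172 were called, 1004 higher and 1168 lower; median centring gave 1377 higher and 1054 lower. Array weights gave 5126, the thalamic covariate 759, both marker covariates 1198, the all-neuron covariate 1328, and leaving out a mouse 1161 (without WT 1) to 2309 (without WT 5). What causes these shifts was not tested. The alternatives with hypothalamic or all-neuron covariates, libraries low in markers left out or as a term, and base composition were chosen after seeing the data. No paired analysis was possible because the 2 groups share none of their mouse numbers.

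Of 895 single-gene values 64 lay on the other side of 0 from the main log2 fold change, each of a gene that was not called in the main analysis. With array weights these were Cacnb1 0.020 and Cacng4 0.029. After quantile normalization these were Cacng2 -0.016 and Scn3b -0.0062. By edgeR these were Cacng2 -0.0076. By DESeq2 these were Cacng2 -0.0095. With the thalamic covariate these were Cacna1s 0.092, Cacna2d4 0.053, Cacng3 0.25, Cacng4 0.093 and Scn7a -0.21. With both marker covariates these were Cacna1s 0.0036, Cacna2d4 0.18, Cacnb4 0.073, Cacng3 0.19, Cacng4 0.054, Scn7a -0.25 and Scn9a -0.041. With the all-neuron covariate these were Cacna1b 0.029, Cacna1s 0.0059, Cacna2d2 0.13, Cacnb1 0.13, Cacng2 -0.079, Cacng3 0.14, Cacng4 0.051, Scn1a -0.090 and Scn3a 0.18. With WT 4 and WT 5, the lowest in hypothalamic markers, left out these were Cacna2d1 0.019, Cacnb2 -0.0050, Cacnb4 0.012, Scn3b -0.034, Scn4b 0.29 and Scn9a -0.10. Without the 4 libraries low in Oxt these were Cacnb1 0.024 and Cacng4 0.032. With a term for those 4 these were Cacng2 -0.00090 and Cacng3 0.0081. After correction for G and C content and length these were Cacna1i 0.023, Cacnb1 0.045 and Cacnb2 -0.0074. Leaving out 1 mouse gave, for genes that changed sign, ranges of Cacna2d1 -0.18 to 0.037, Cacnb1 -0.065 to 0.044, Cacng2 -0.022 to 0.030, Cacng3 -0.10 to 0.046, Scn3b -0.017 to 0.036, Scn4b -0.37 to 0.12, Scn9a -0.030 to 0.14. In the same fits Scn1a ran from 0.12 to 0.28 and Scn2a from 0.037 to 0.18. Scn8a ran from -0.17 to -0.065 and Cacna1i from -0.21 to -0.076, and none of these genes changed sign or passed. The 6 untested genes were left out by the minimum of 1 CPM. With 7 against 5 mice, the 95% intervals above give the sizes that remain possible.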
